A study of Mus musculus with 9 samples.

Results

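The 9 genes described here mark megakaryocytes and the platelets they shed: Ppbp, Pf4, Itga2b, Gp1ba, Gp1bb, Gp5, Gp6, Gp9 and Treml1. They were taken by symbol, and all 9 were found among the 55286 genes of the deposited count and TPM tables. RNA was sequenced from mouse embryonic lung in 3 groups of 3 libraries. EPZ5676 libraries came from wild-type E11.5 lung explants cultured for 72 h with EPZ5676, also called pinometostat, an inhibitor of the histone H3 lysine 79 methyltransferase DOT1L. Control libraries came from wild-type E11.5 explants cultured for 72 h as the comparison without EPZ5676. E11.5 libraries came from wild-type lung of that embryonic day without culture. The labels give no dose and no vehicle. They also do not state that replicates are different embryos or different cultures, and p-values therefore cover whatever spread these replicates have, technical spread included.

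Megakaryocytes are large, polyploid blood cells that arise from haematopoietic progenitors and release platelets into the circulation. Platelets store chemokines in their granules, bind von Willebrand factor through the glycoprotein Ib-IX-V complex, sense collagen through glycoprotein VI, and aggregate through the integrin whose alpha chain is encoded by Itga2b. In the early mouse embryo the first such cells come from the yolk sac, and they reach the lung through its vessels. An explant has no circulation. Because whole tissue was sequenced, fewer cells of a type and less RNA per cell cannot be told apart in any value below.

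Ppbp and Pf4 are neighbours in a chemokine cluster on chromosome 5 (GRCm38). Ppbp lies at chr5:90768518-90770063 and Pf4 at chr5:90772435-90773383, both on the plus strand, with 2371 bases between them. Itga2b lies at chr11:102453297-102470122 on the minus strand and Gp1ba at chr11:70639122-70642036 on the plus strand. Gp1bb (chr16:18620317-18622403) and Gp5 (chr16:30307685-30310779) lie on the minus strand of chromosome 16. Gp6 lies at chr7:4363965-4397744 on the minus strand, Gp9 at chr6:87778072-87779768 on the plus strand and Treml1 at chr17:48359916-48367176 on the plus strand.

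Megakaryocyte genes are textbook targets of GATA1 and of ETS factors such as FLI1, so the 250 bases upstream of each RefSeq start (GRCm38.p6) were searched on both strands. The GATA letters were the forms AGATAA or else TGATAA, as well as AGATAG or else TGATAG, and the ETS letters were AGGAAG or else CGGAAG. Letters of the GATA type were present in 4 of the 9 windows (Gp1ba, Gp1bb, Gp5 and Gp6) and in 26.5% of all 32851 promoter windows of that length. ETS letters were present in 6 of the 9 (Pf4, Itga2b, Gp1ba, Gp1bb, Gp5 and Gp9) and in 39.2% of all windows. A match is a run of letters and not a measured binding site. Below are the windows of the chemokine neighbours Ppbp (chr5:90768268-90768517, plus strand) and Pf4 (chr5:90772185-90772434, plus strand), which had the largest falls among the members tested, and of Gp1ba (chr11:70638872-70639121, plus strand) and Gp5 (chr16:30310782-30311031, minus strand), which held the most GATA letters. They run 5′ to 3′ along the gene's strand, and capitals mark GATA and ETS matches in either orientation, none of which overlap here.
Ppbp: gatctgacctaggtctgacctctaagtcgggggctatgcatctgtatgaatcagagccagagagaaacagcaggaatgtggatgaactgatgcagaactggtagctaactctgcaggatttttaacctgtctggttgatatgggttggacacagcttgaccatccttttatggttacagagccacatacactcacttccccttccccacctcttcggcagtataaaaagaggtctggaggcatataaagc
Pf4: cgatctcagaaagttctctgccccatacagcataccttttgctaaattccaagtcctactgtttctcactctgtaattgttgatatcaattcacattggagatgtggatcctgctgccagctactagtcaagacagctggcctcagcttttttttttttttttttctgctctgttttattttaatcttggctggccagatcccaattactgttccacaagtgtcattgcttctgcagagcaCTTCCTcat
Gp1ba: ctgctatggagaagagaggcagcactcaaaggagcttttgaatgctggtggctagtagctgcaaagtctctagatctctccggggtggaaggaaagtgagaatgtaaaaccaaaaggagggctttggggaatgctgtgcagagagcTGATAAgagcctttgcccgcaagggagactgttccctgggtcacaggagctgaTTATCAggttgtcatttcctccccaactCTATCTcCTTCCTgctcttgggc
Gp5: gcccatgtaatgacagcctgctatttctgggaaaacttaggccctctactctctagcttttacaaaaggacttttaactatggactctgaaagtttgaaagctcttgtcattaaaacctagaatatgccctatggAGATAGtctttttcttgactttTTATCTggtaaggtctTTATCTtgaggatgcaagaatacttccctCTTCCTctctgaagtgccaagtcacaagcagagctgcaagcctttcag
The Ppbp window held no match and the Pf4 window 1 ETS match, 4 to 9 bases before the start. The Gp1ba and Gp5 windows held 3 GATA matches and 1 ETS match each.

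The genes were expressed at low levels in every library. The libraries held 6509563 to 9861452 expected counts, and the 9 genes together drew 16 to 54 counts in EPZ5676 libraries, 16 to 48 in Control libraries and 156 to 187 in E11.5 libraries. In TPM, which is scaled by transcript length, the members summed to 16.4, 6.21 and 9.65 in EPZ5676 replicates 1, 2 and 3. The sums were 8.68, 4.7 and 3.41 TPM in Control replicates 1, 2 and 3, and 49.6, 44.6 and 54.5 TPM in the E11.5 replicates. Each cultured library therefore lay below each fresh one in the summed level. Libraries carried lung genes as labelled, with 10 epithelial and mesenchymal markers summing to 1210 to 1987 TPM in EPZ5676, 858 to 1592 TPM in Control and 422 to 493 TPM in E11.5 libraries. Sftpc alone gave 500.99 to 1444.81 TPM with EPZ5676 and 142.02 to 1110.84 TPM in Control, against 8.93 to 16.79 TPM in fresh lung. Of the 10 markers, edgeR called 5 higher with EPZ5676 than in fresh lung and 6 in Control explants, and 2 (Tbx5 and Foxf1) lower in each. Control 1 stood apart in transcripts of other organs: 10 liver genes summed to 234 TPM there, against 1.92 and 2.35 TPM in the other Control libraries, 1.32 to 1.58 TPM with EPZ5676 and 4.31 to 25.6 TPM in fresh lung.

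**Figure D1:**
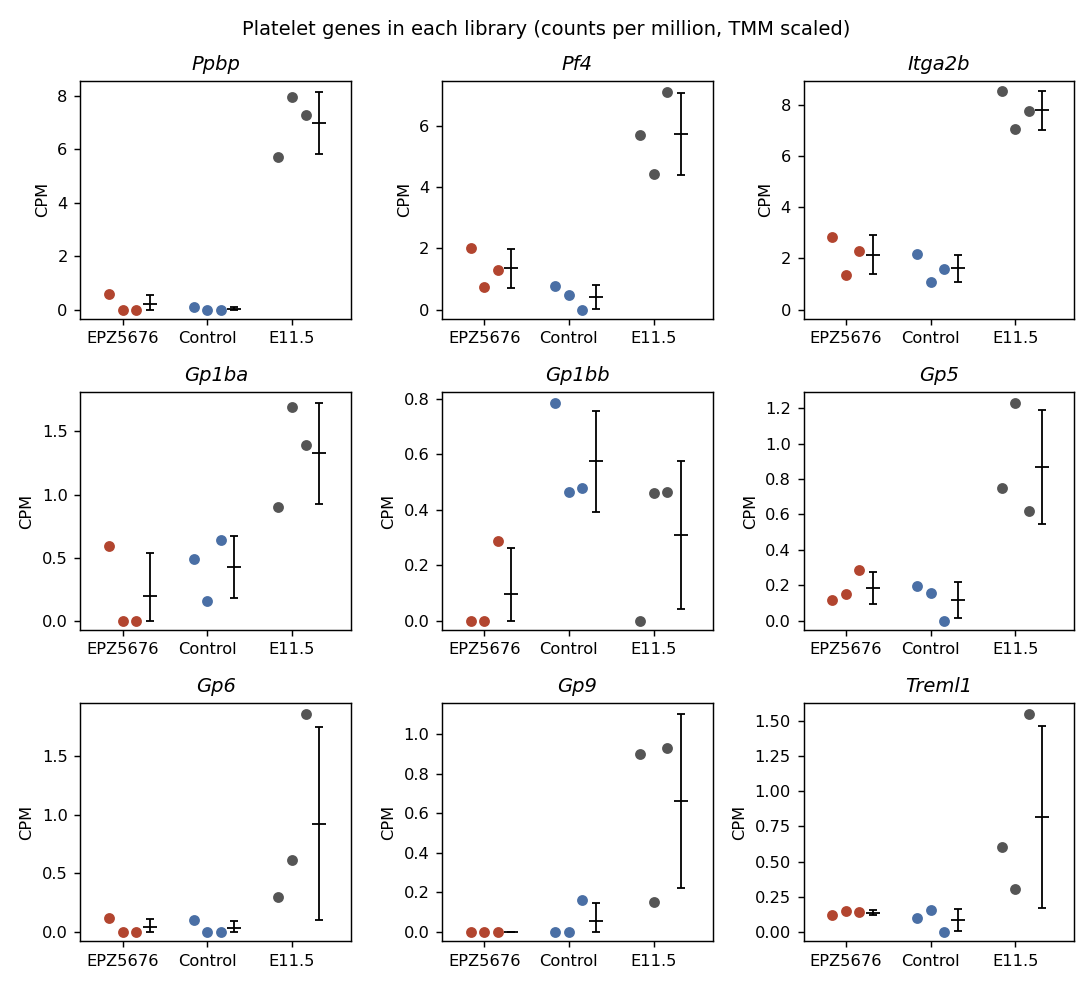
TMM-scaled count level (CPM, y axis) of the 9 genes in each library (points: replicates 1, 2 and 3 from left to right), with the mean and SD of each group of 3 beside them (the lower bar stops at 0). Ppbp, Pf4 and Itga2b are higher in each E11.5 library than in any cultured one, while the E11.5 and Control libraries of Gp1bb overlap.

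Per transcript length, the order of the genes differed between groups. In fresh lung Pf4 was highest with 26.1 ± 4.49 TPM (SD, n = 3), followed by Ppbp with a median of 11.8 TPM and Itga2b with 6.99 ± 3.35 TPM. The libraries of Ppbp (9.49 to 13.26 TPM) and Itga2b (4.67 to 10.83 TPM) overlapped, so those neighbours in the order did not differ beyond their spread. The remaining 6 genes averaged 0.347 TPM (Gp6) to 1.39 TPM (Gp9) in fresh lung. With EPZ5676, Pf4 (5.52 ± 3.07 TPM) and Itga2b (4.2 ± 1.42 TPM) led and overlapped, and in Control explants Itga2b (2.78 ± 0.99 TPM) and Pf4 (1.59 ± 1.57 TPM) led and overlapped. Ppbp, the second gene in fresh lung, averaged 0.343 ± 0.595 TPM with EPZ5676 and 0.06 ± 0.104 TPM in Control explants.

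A minimum-count filter kept 15158 genes for the main test, among them 3 of the 9 members: Ppbp, Pf4 and Itga2b. Itga2b also passed on the cultured libraries alone, while Ppbp and Pf4 passed only through fresh lung, where they are high, so that their fall in culture is partly fixed by the filter. Both explant groups were compared with the same fresh libraries and therefore share them. With EPZ5676, 3 of the 3 tested members fell relative to fresh lung, where 17.9% of all tested genes were called lower and 22.1% higher (edgeR quasi-likelihood test, adjusted p below 0.05). In Control explants 3 of 3 fell, where 16.6% of all tested genes were called lower and 21.1% higher. In the order of log2 fold change from the lowest, Ppbp was number 42 of 15158 with EPZ5676 and number 8 in Control explants, Pf4 number 239 and 58, and Itga2b number 293 and 188. The places of Ppbp and Pf4 are partly fixed by the filter too, and those of Ppbp rest on 5 counts with EPZ5676 and 1 in Control explants.

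Ppbp encodes pro-platelet basic protein, the precursor of the neutrophil-attracting chemokine CXCL7. It had 5, 0 and 0 counts in EPZ5676 libraries and 1, 0 and 0 in Control libraries, against 38, 52 and 47 counts in E11.5 libraries. Of the 6 cultured libraries, 4 held none, and the only ones with counts were EPZ5676 1 and Control 1. The level was 31-fold lower with EPZ5676 than in fresh lung over pooled counts (95% counting interval 13 to 97), and 160-fold lower in Control explants (28.3 to 6380). The fitted log2 fold change was -4.88 ± 0.71 (SE) with EPZ5676 (edgeR adjusted p = 4.2e-04) and -6.86 ± 0.89 in Control explants (edgeR adjusted p = 2.4e-04). Without EPZ5676 1 the other EPZ5676 libraries held no count, which puts them at least 32-fold lower than fresh lung at a floor of 3 counts over those libraries. Without Control 1 the other Control libraries held none either and were at least 29.7-fold lower. EPZ5676 1 and Control 1 were also the deepest explant libraries, with 8235720 and 9861452 expected counts against 6509563 to 6909357 in the others. They held more red cell transcripts than the other explants, as given further on, and Control 1 also held the liver transcripts given above. The part of depth or of these transcripts in the Ppbp counts was not tested.

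Pf4 encodes platelet factor 4, a heparin-binding chemokine of the platelet granules. It had 17, 5 and 9 counts with EPZ5676 (8.93, 3 and 4.62 TPM) and 8, 3 and 0 counts in Control libraries (3.13, 1.63 and 0 TPM), against 38, 29 and 46 counts in fresh lung (24.82, 22.3 and 31.03 TPM). The cultured libraries did not overlap the fresh ones, but 5 of 6 still held reads. Pf4 was 4.12-fold lower with EPZ5676 than in fresh lung (95% counting interval 2.75 to 6.35) and 12-fold lower in Control explants (6.47 to 24.8). The log2 fold changes were -2.06 ± 0.53 with EPZ5676 (edgeR adjusted p = 0.0106) and -3.60 ± 0.61 in Control explants (edgeR adjusted p = 0.0012). Without Control 1 the Control value was -4.51. On log2(TPM + 0.1) with limma the EPZ5676 call was lost (-2.35, adjusted p = 0.119).

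Itga2b encodes CD41, the alpha chain of the platelet fibrinogen receptor, which is also present on early haematopoietic progenitors. It kept the most reads in culture, with 24, 9 and 16 counts with EPZ5676 and 22, 7 and 10 in Control libraries, against 57, 46 and 50 in fresh lung. It was 3.53-fold lower with EPZ5676 over pooled counts (95% counting interval 2.55 to 4.98) and 4.59-fold lower in Control explants (3.21 to 6.71). The log2 fold changes in counts were -1.83 ± 0.34 with EPZ5676 (edgeR adjusted p = 0.00166) and -2.23 ± 0.35 in Control explants (edgeR adjusted p = 7.2e-04).

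The deposited TPM of Itga2b gave a smaller difference than the counts. They were 5.63, 2.8 and 4.16 TPM with EPZ5676 and 3.91, 2.08 and 2.34 TPM in Control libraries, against 10.83, 5.47 and 4.67 TPM in fresh lung, so EPZ5676 1 lay above E11.5 replicates 2 and 3. One unit of CPM was worth 1.82 to 2.1 TPM in EPZ5676 libraries, 1.47 to 1.93 TPM in Control libraries and 0.603 to 1.26 TPM in fresh lung. TPM depends on the transcript lengths to which reads were assigned, and the gene has 10 annotated transcripts of 268 to 3437 bases, of which 1 is coding. On log2(TPM + 1) with limma the EPZ5676 difference was -0.58 (adjusted p = 0.206), and on log2(TPM + 0.1) it was -0.68 (adjusted p = 0.225). The Control difference on these scales was -1.03 (adjusted p = 0.0394) and -1.26 (adjusted p = 0.0406). Which transcripts the reads came from was not tested.

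**Figure D2:**
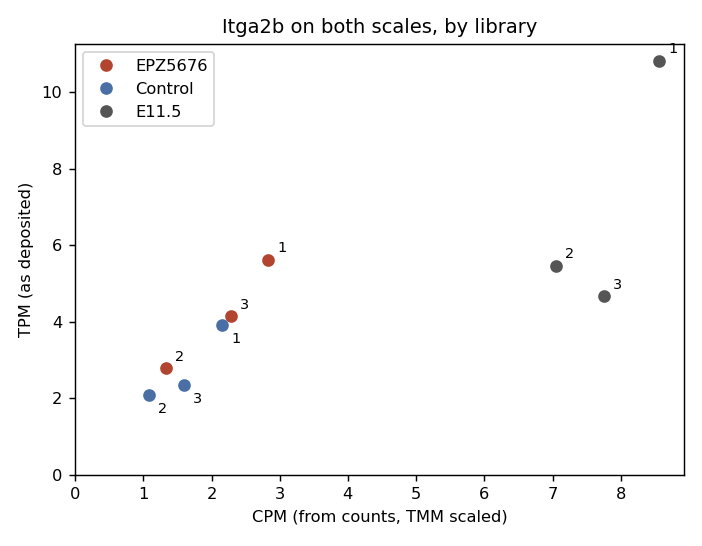
Itga2b in each library on the count scale (CPM, x axis) and as deposited TPM (y axis), with the replicate number beside each point. The fresh libraries are clear of the cultured ones along the x axis, but E11.5 2 and 3 (5.47 and 4.67 TPM) lie within the TPM range of the EPZ5676 libraries (2.8 to 5.63).

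The other 6 members had at most 12 counts in any library and did not pass the filter, so they are given by counts and by ratios of pooled CPM, whose 95% intervals cover counting error only. Counted over all 9 members with CPM, each EPZ5676 library lay below each fresh one for 8 genes, all but Gp1bb, where 17.3% of the 30385 genes with any count did so. Each Control library lay below each fresh one for 7 genes, all but Gp1bb and Gp9, where 15.1% of genes with any count did so. Without the filter, edgeR called 6 of 9 members lower with EPZ5676 (Ppbp, Pf4, Itga2b, Gp1ba, Gp6 and Gp9), where 7.97% of genes were called lower. It called 5 of 9 lower in Control explants (Ppbp, Pf4, Itga2b, Gp6 and Treml1), where 7.24% were. DESeq2 called the 3 filtered members alone in each comparison, where 15.2% of genes were lower with EPZ5676 and 13.4% in Control explants. It gave an adjusted p to only 5 members with EPZ5676 and to 8 in Control explants, so the rest could not be called.

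The glycoprotein Ib-IX-V complex is built from Gp1ba, which carries the von Willebrand factor site, and from Gp1bb, Gp9 and Gp5. Gp1ba had 5, 0 and 0 counts with EPZ5676 and 5, 1 and 4 in Control libraries, against 6, 11 and 9 in fresh lung. Its ratio to fresh lung was 0.17 with EPZ5676 (0.051 to 0.45) and 0.329 in Control explants (0.141 to 0.704). It was lower in each cultured library than in any fresh one, and all its EPZ5676 counts came from replicate 1.

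Gp9 had no count in any EPZ5676 library and 0, 0 and 1 in Control libraries, against 6, 1 and 6 in fresh lung. With EPZ5676 it was at least 4.9-fold lower than in fresh lung, setting the floor at 3 counts over the group. Its Control ratio was 0.0657 (0.00155 to 0.437), and 0.118 without Control 1. Gp5 had 1, 1 and 2 counts with EPZ5676 and 2, 1 and 0 in Control libraries, against 5, 8 and 4 in fresh lung. Its ratio was 0.208 with EPZ5676 (0.0509 to 0.638) and 0.151 in Control explants (0.0283 to 0.521), or 0.0904 without Control 1.

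Gp1bb was the one member whose libraries overlapped fresh lung in both explant groups. Its expected counts were 0, 0 and 1.68 with EPZ5676 and 8.33, 3.3 and 3.23 in Control libraries, against 0, 2.56 and 3 in fresh lung. The ratio to fresh lung was 0.295 with EPZ5676 (0.0291 to 1.65) and 1.99 in Control explants (0.72 to 6.33), and both intervals include 1. Over left-out libraries the EPZ5676 ratio ran from 0.195 (without E11.5 1) to 0.476 (without EPZ5676 1) and the Control ratio from 1.32 (without E11.5 1) to 2.68 (without E11.5 3). Without E11.5 3 the Control libraries lay above the fresh ones in CPM, by a lowest value of 0.462 against a highest of 0.46, while in TPM they still overlapped. Gp1bb overlaps the protein-coding genes Sept5 and Gm49601 on the same strand, so the origin of its reads cannot be told apart. Sept5, a septin gene, was far more abundant, at 23.8 ± 8.67 TPM with EPZ5676, 27.4 ± 8.68 TPM in Control and 23.6 ± 5.52 TPM in fresh lung (SD, n = 3).

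Gp6 encodes glycoprotein VI, the collagen receptor. It had 1, 0 and 0 counts with EPZ5676 and 1, 0 and 0 in Control libraries, against 2, 4.24 and 12.01 expected counts in fresh lung. Its ratio was 0.0491 with EPZ5676 (0.00118 to 0.311) and 0.0475 in Control explants (0.00114 to 0.301). Most fresh counts came from E11.5 3, and without it the ratios were 0.0989 and 0.0956.

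Treml1 encodes TLT-1, a receptor stored in platelet granules. It had 1 count in each EPZ5676 library and 1, 1 and 0 in Control libraries, against 4, 2 and 10 in fresh lung. Its ratio was 0.166 with EPZ5676 (0.0309 to 0.579) and 0.107 in Control explants (0.0119 to 0.454), or 0.297 and 0.191 without E11.5 3.

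**Figure D3:**
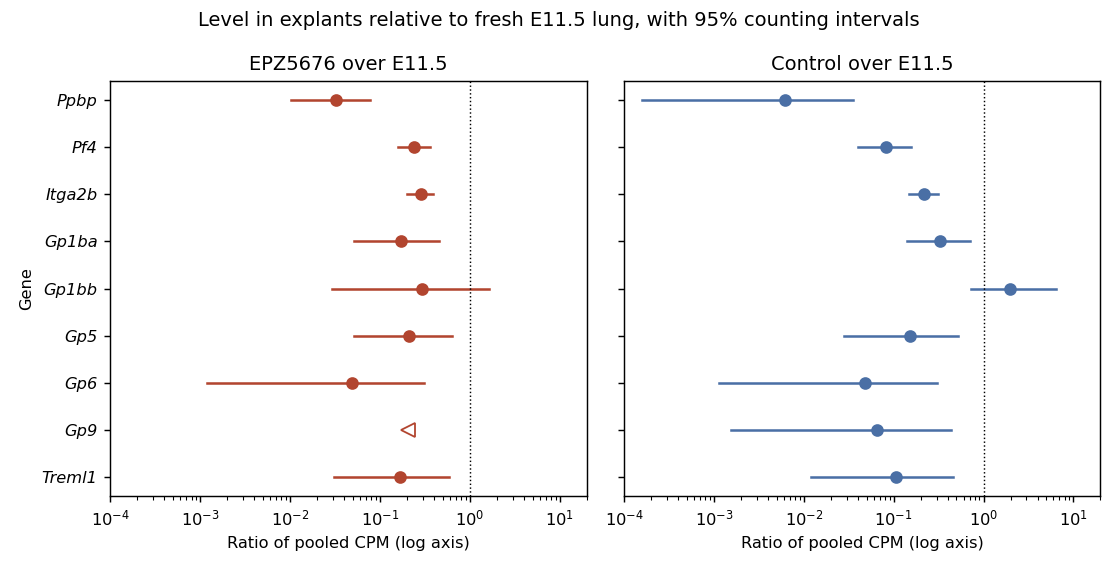
Ratio of pooled CPM in explants to fresh E11.5 lung (x axis, log scale) for each gene, EPZ5676 on the left and Control on the right, with 95% counting intervals; the open triangle marks the upper bound for Gp9 with EPZ5676, and the dotted line marks a ratio of 1. All intervals lie below 1 apart from those of Gp1bb.

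Between EPZ5676 and Control explants no member passed the threshold. No gene of the 15158 did so in edgeR, while 1052 (6.94%) had an unadjusted p below 0.05. DESeq2 called 0.459% of genes higher and 0.0835% lower, and edgeR without the filter called 0.221% higher and 0.0296% lower, with no member among them. Pf4 was the one filtered member with an unadjusted edgeR p below 0.05. It was higher with EPZ5676 by a log2 fold change of 1.54 ± 0.67 (edgeR unadjusted p = 0.0413, adjusted p = 0.7), and DESeq2 gave 1.58 (adjusted p = 0.737). The pooled ratio was 2.92 with a counting interval of 1.43 to 6.43, and the libraries overlapped, since Control 1 (0.784 CPM) lay above EPZ5676 2 (0.74 CPM). Without Control 1 the libraries no longer overlapped and the value was 2.46, and without Control 3 it was 1.06. Without EPZ5676 1, which held 17 of the 31 EPZ5676 counts, it was 1.12 ± 0.76, and no tested member had an unadjusted edgeR p below 0.05.

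Itga2b differed by 0.40 ± 0.37 between EPZ5676 and Control (edgeR adjusted p = 0.892), with a pooled ratio of 1.3 (0.836 to 2.03). Ppbp differed by 1.98 ± 1.36 (edgeR adjusted p = 0.844), on 5 counts against 1, all 5 of them in EPZ5676 1, so its direction rests on that library. Gp1bb was the one gene lower in each EPZ5676 library than in any Control library (ratio 0.148, 0.0163 to 0.644), where 3.33% of genes with any count were. Its reads cannot be told apart from those of Sept5, and edgeR without the filter gave an adjusted p of 0.824 (unadjusted p = 0.0298). No member was higher in each EPZ5676 library, against 4.59% of genes. The Gp1ba ratio was 0.517 (0.139 to 1.66), and the other members had too few counts in the explants to show a difference at this depth.

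Of 9 listed transcription regulators 8 were tested, and 6 fell in each explant group against fresh lung (Gata1, Gata2, Nfe2, Fli1, Tal1 and Zfpm1) while Runx1 rose and Lyl1 was not called (edgeR adjusted p = 0.0985 with EPZ5676 and 0.103 in Control explants). Gata1, Gata2, Nfe2 and Lyl1 entered the test only through fresh lung, so their part of this count is partly fixed by the filter. The median log2 fold change was -2.03 with EPZ5676 and -2.25 in Control explants, beside 0.02 over all tested genes in both comparisons. The share called lower over all tested genes was 17.9% with EPZ5676 and 16.6% in Control explants. Gata1, the factor that drives erythroid and megakaryocyte programmes, had no count with EPZ5676 and 5, 0 and 0 in Control libraries, against 19, 18 and 32 in fresh lung. With EPZ5676 it was at least 26-fold lower than in fresh lung at a floor of 3 counts over the group, and the list's median with this bound was -2.02. All its Control counts came from Control 1. The log2 fold change in Control explants was -3.98, and without Control 1 the group held no count and was at least 15-fold lower.

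Nfe2, the factor needed for platelet release, had 0.687 ± 0.26 TPM with EPZ5676 and 0.347 ± 0.361 TPM in Control explants, against 6.64 ± 1.74 TPM in fresh lung. Its log2 fold changes were -3.40 and -3.80 (edgeR adjusted p = 0.00107 and 8.0e-04). Gata2, a progenitor factor, fell by 2.60 with EPZ5676 and by 3.35 in Control explants on the log2 scale (edgeR adjusted p = 0.00345 and 0.0014), and Tal1 by 3.28 and 3.26 (adjusted p = 0.00131 and 0.0015). Without Control 1 the Control values were -4.96 for Nfe2, -4.65 for Gata2 and -4.40 for Tal1, and without EPZ5676 1 the EPZ5676 value of Gata2 was -3.27. Runx1, which also serves other blood lineages and mesenchyme, stood at 8.94 ± 2.36 TPM in EPZ5676 explants and 7.82 ± 3.31 TPM in Control explants, against 2.54 ± 0.431 TPM in fresh lung (log2 fold change 1.83 and 1.60, edgeR adjusted p = 3.2e-04 and 8.5e-04). It was chosen after its values were seen, as the one regulator that rose.

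Among 13 other platelet surface receptors 8 were tested. With EPZ5676 4 fell (Itga2, Clec1b, P2rx1 and Cd226) and 2 rose (Tbxa2r and Fcer1g), where 17.9% of all tested genes were called lower and 22.1% higher. In Control explants the same 4 fell and 3 rose (P2ry1 as well), or 1 without Control 1, where 16.6% were called lower and 21.1% higher in the main test. Clec1b, P2rx1 and Cd226 entered the test only through fresh lung, so their fall is partly fixed by the filter. Clec1b, the podoplanin receptor CLEC-2, had 1, 0 and 0 counts with EPZ5676 and 3, 0 and 0 in Control libraries, against 16, 29 and 33 in fresh lung. Its log2 fold changes were -6.01 ± 0.87 and -4.80 ± 0.75 (edgeR adjusted p = 4.1e-04 and 7.7e-04), and without replicate 1 each explant group held no count and was at least 18.2-fold (EPZ5676) or 16.9-fold (Control) lower. Cd226, an adhesion receptor of platelets and lymphocytes, had 1 count with EPZ5676 and 2 in Control explants, against 12, 11 and 10 counts in fresh libraries.

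Receptor genes that rose, and some that fell, are also expressed outside the lineage. The part of other cells in their values was not tested. Fcer1g, the signalling chain that partners glycoprotein VI and also serves macrophage and mast cell receptors, was at 37.6 ± 4.57 TPM in EPZ5676 and 31.9 ± 2.77 TPM in Control explants, against 3.32 ± 1.82 TPM in fresh lung. Its log2 fold changes were 3.46 and 3.26 (edgeR adjusted p = 2.3e-05 and 4.1e-05). Tbxa2r, the thromboxane receptor, rose by 2.21 with EPZ5676 and by 1.83 in Control explants (edgeR adjusted p = 0.00956 and 0.0259). The Control call was lost without Control 1, Control 2, E11.5 1 or E11.5 2, with a lowest value of 1.43. Without E11.5 3 the values were 3.27 and 2.89.

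Of 7 genes for secreted platelet proteins, all tested, 2 fell with EPZ5676 (Vwf and Mmrn1) and 3 in Control explants (Vwf, Mmrn1 and F13a1). F5, Thbs1, Srgn and Nrgn were called in neither comparison. Over all tested genes 17.9% were called lower with EPZ5676 and 16.6% in Control explants. The list's median log2 fold change with EPZ5676 was 0.02, beside 0.02 over all tested genes. In Control explants the list's median lay below that of all tested genes. Mmrn1, the granule protein multimerin 1 that endothelium also makes, was at 1.83 ± 0.577 TPM in EPZ5676 and 1.12 ± 0.76 TPM in Control explants, against 24.6 ± 1.91 TPM in fresh lung. Vwf, von Willebrand factor of platelets and endothelium, was at 0.89 ± 0.689 and 1.25 ± 0.147 TPM in EPZ5676 and Control explants, against 4.1 ± 0.454 TPM in fresh lung.

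F13a1, coagulation factor XIII A of platelets and macrophages, took another course. It was at 6.4, 8.77 and 4.33 TPM with EPZ5676 and at 0.81, 1.89 and 0.28 TPM in Control libraries, against 8.57, 3.3 and 4.6 TPM in fresh lung. Each EPZ5676 library lay above each Control library and within or close to the fresh range. The log2 fold change of EPZ5676 over fresh lung was 0.26 ± 0.42 (edgeR adjusted p = 0.656) and that of Control over fresh lung -2.85 ± 0.50 (edgeR adjusted p = 0.0019). EPZ5676 over Control was 3.11 ± 0.50, which edgeR did not call (adjusted p = 0.131) and DESeq2 did (adjusted p = 6.6e-07). It was the only gene called by DESeq2 between EPZ5676 and Control among these platelet lists and members.

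Of 15 genes for platelet signalling and structure 13 were tested, and in each explant group 5 fell (Tubb1, Rasgrp2, Gng11, Alox12 and Prkcq) and 5 rose (Plek, Tbxas1, Ptgs1, Plcg2 and Nbeal2). Without EPZ5676 1, 3 fell with EPZ5676, and without Control 1, 4 fell and 4 rose in Control explants. Over all tested genes 17.9% were called lower and 22.1% higher with EPZ5676, and 16.6% and 21.1% in Control explants. The list's median log2 fold change was 0.22 with EPZ5676 and 0.07 in Control explants, beside 0.02 over all tested genes. Tubb1, Rasgrp2 and Alox12 entered the test only through fresh lung, so their fall is partly fixed by the filter. Tubb1, the tubulin of the platelet rim, had 2, 0 and 0 counts with EPZ5676 and 1, 0 and 0 in Control libraries, against 14, 15 and 14 in fresh lung. Its log2 fold changes were -4.38 ± 0.76 and -5.20 ± 0.84 (edgeR adjusted p = 0.0012 and 9.1e-04), and without replicate 1 each explant group held no count and was at least 10-fold (EPZ5676) or 9.33-fold (Control) lower. Rasgrp2, the exchange factor that activates integrins, fell by 2.36 with EPZ5676 and by 2.82 in Control explants (edgeR adjusted p = 3.8e-04 and 2.0e-04).

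Alox12, platelet 12-lipoxygenase, fell by 2.06 and 2.27 on the log2 scale (edgeR adjusted p = 0.0256 and 0.0188). Its EPZ5676 call was lost without EPZ5676 1, EPZ5676 3, E11.5 1 or E11.5 2 and in limma on log2(TPM + 0.1) (adjusted p = 0.0721), and its Control call without E11.5 1. Ptgs1, the cyclooxygenase that platelets share with macrophages and other cells, was at 36.4 ± 4.87 TPM in EPZ5676 and 24.7 ± 6.57 TPM in Control explants, against 7.18 ± 3.36 TPM in fresh lung. It rose by 2.51 and 1.99 (edgeR adjusted p = 6.5e-05 and 3.1e-04).

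None of the chemokine genes beside Ppbp and Pf4 was called lower in the explants, but for most of them no fall could be seen. Cxcl1, Cxcl2 and Cxcl3 had no count in fresh lung, and Cxcl5 had 1, 0 and 1. Of 5 neighbours (Cxcl5, Cxcl3, Cxcl15, Cxcl1 and Cxcl2) 1 was tested and none was called in edgeR, while DESeq2 called 3 higher with EPZ5676 and edgeR without the filter 2 higher in each explant group. In edgeR, Cxcl15 was called higher in both comparisons with the replicate block (adjusted p = 0.04 with EPZ5676 and 0.0456 in Control explants) and without E11.5 1 (0.0395 and 0.0469), and in Control explants without Control 3 (0.0395). Cxcl15, a chemokine of mouse lung, was at 8.5 ± 5.05 TPM in EPZ5676 and 8.09 ± 4.13 TPM in Control explants, against 3.63 ± 1.96 TPM in fresh lung. Its log2 fold changes were 1.22 (unadjusted p = 0.0385) and 1.17 (unadjusted p = 0.0468), with edgeR adjusted p = 0.0834 and 0.101.

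Between EPZ5676 and Control, edgeR called none of the regulators, receptors, secreted, signalling or neighbouring genes. At an unadjusted p below 0.05 it held 2 of 7 tested secreted genes (F13a1 and Nrgn) and 1 of 13 signalling genes (Ptgs1). It held none of 8 regulators, 8 receptors and 1 neighbour. Of all tested genes 6.94% had such a p.

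**Figure D4:**
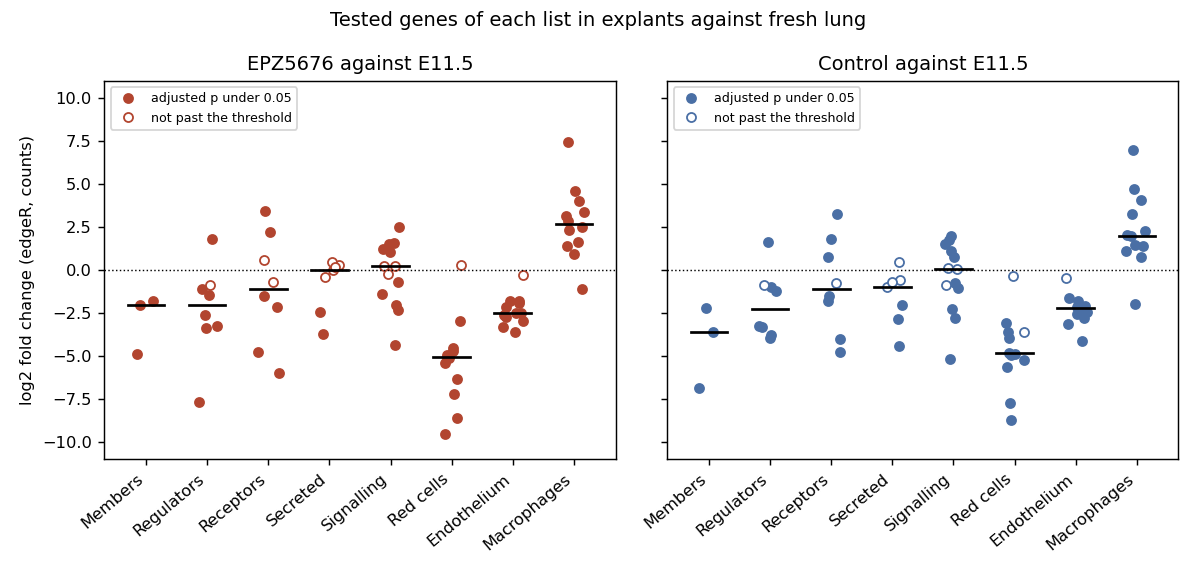
Log2 fold change in counts (y axis, edgeR) of each tested gene against fresh E11.5 lung, by gene list (x axis), with EPZ5676 on the left and Control on the right; filled points have an adjusted p below 0.05, open points do not, and bars mark the list median. Members and most regulators lie below 0 together with red cell and endothelial genes, while 11 of 12 macrophage genes lie above it.

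Other blood and vessel genes moved in the same direction as the members. Of 12 red cell genes 11 fell with EPZ5676 and 10 in Control explants, with medians of -5.08 and -4.85, though 4 of them entered the test only through fresh lung. Their summed level was 1068, 78.7 and 557 TPM in EPZ5676 replicates 1, 2 and 3 and 1212, 267 and 116 TPM in Control replicates 1, 2 and 3, against 18174 to 25100 TPM in fresh lung. Of 12 endothelial genes 11 fell in each explant group (medians -2.50 and -2.20), with sums of 51 to 100 TPM with EPZ5676, 31.8 to 129 TPM in Control and 297 to 326 TPM in fresh lung. Among those that fell, Plvap entered the test only through fresh lung. Of all tested genes 17.9% were called lower with EPZ5676 and 16.6% in Control explants. EPZ5676 1 and Control 1 had the highest sums of their groups for the members, the red cell genes and the endothelial genes. The part of red cell and endothelial content in the members' values was not tested.

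Macrophage genes moved the other way. Of 12, 11 rose and 1 (Cx3cr1) fell in each explant group, with medians of 2.67 with EPZ5676 and 1.99 in Control explants. Of all tested genes 22.1% were called higher with EPZ5676 and 21.1% in Control explants. The Cx3cr1 call with EPZ5676 (edgeR adjusted p = 0.0479) was lost without EPZ5676 1. The sums of the 12 genes were 865 to 1002 TPM with EPZ5676 and 622 to 747 TPM in Control, against 39.6 to 70 TPM in fresh lung, so the EPZ5676 sums lay above all Control sums. Lyz2 alone gave 595 to 650 TPM with EPZ5676 and 383 to 505 TPM in Control, and without it the sums overlapped, at 239 to 352 TPM with EPZ5676 and 180 to 280 TPM in Control. EdgeR called none of the 12 between EPZ5676 and Control, and 4 had an unadjusted p below 0.05 (C1qa, C1qb, C1qc and Lyz2), as in DESeq2, which called none. Pf4, F13a1, Fcer1g and Ptgs1 are also expressed by macrophages, and the part of macrophage content in their values was not tested. The 10 mast cell and neutrophil genes had sums of 0.94 to 6.67 TPM with EPZ5676, 0.65 to 17.4 TPM in Control and 3.67 to 10.1 TPM in fresh lung. The highest was Control 1, where S100a9 gave 10.54 TPM and S100a8 3.63 TPM. One gene, Mpo, was tested, through fresh lung alone, and was called lower with EPZ5676 than in fresh lung (edgeR adjusted p = 0.00428), with 0, 0 and 0 counts against 13, 18 and 11.

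**Figure D5:**
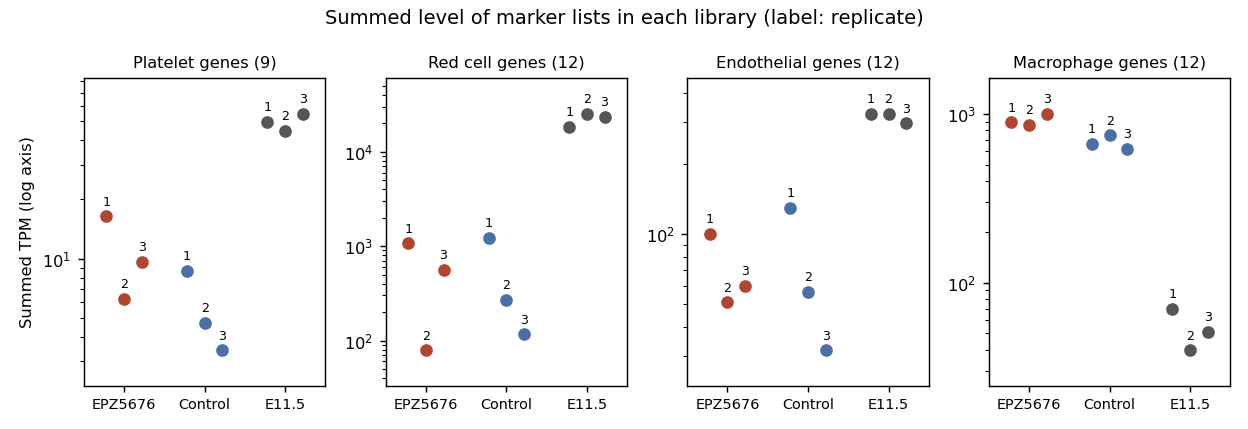
Summed TPM (y axis, log scale) of the 9 platelet genes and of red cell, endothelial and macrophage genes in each library, with the replicate number above each point. Platelet genes summed to 3.41 to 16.4 TPM in the cultured libraries and 44.6 to 54.5 TPM in fresh lung; macrophage genes summed to 622 to 1002 and 39.6 to 70 TPM.

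The profile of the 3 tested members over the 9 libraries was compared with that of 13089 other genes, by the root mean square difference in centred log2 CPM. The members themselves lay 0.44 (Pf4), 0.56 (Itga2b) and 0.71 (Ppbp) from their common average. The 8 nearest genes were Zfp366 (0.26), Gcg (0.28), Tubb1 (0.29), Col22a1 (0.32), Gata2 (0.35), Ptprb (0.35), Clec1a (0.38) and Cd34 (0.38). Zfp366 was at 0.243 ± 0.154 TPM in EPZ5676 and 0.143 ± 0.102 TPM in Control explants, against 1.65 ± 0.371 TPM in fresh lung. Gcg, the glucagon gene, was at 0.29 ± 0.252 and 0.06 ± 0.104 TPM, against 4.99 ± 0.697 TPM in fresh lung. Cd34, a surface protein of progenitors and endothelium, was at 10.5 ± 2.47 and 9.11 ± 5.36 TPM, against 52.5 ± 3.26 TPM in fresh lung. These genes were chosen because their profile follows that of genes lower in culture, so their lower levels there are a description and were not tested.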

How the data were processed

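The authors deposited expected counts per gene, which are estimates and need not be whole (12.5% to 15.3% were not), and TPM, scaled by transcript length and depth (sums 998977 to 999233). Per the submitters' processing notes the tools were Bowtie2 and RSEM, versions not given, with build mm10. No strand setting for the counting is stated. Total RNA was taken with TRIzol and libraries with a Vazyme kit, per the labels' protocols. All gene IDs (100%) matched GENCODE M21 (GRCm38), which gave positions, and promoters are RefSeq's (GRCm38.p6).

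Counts were rounded, filtered with filterByExpr (minimum count 10), scaled by TMM and fitted once by group over 9 libraries by the quasi-likelihood F test of edgeR 4.0.16 (legacy method, robust, two-sided) in R 4.3.3, with Benjamini-Hochberg adjustment over 15158 genes and a threshold of 0.05. The SE is the log2 fold change divided by the root of F. Pooled CPM ratios carry exact 95% Clopper-Pearson intervals for counting error only, with a floor of 3 counts per group. No row lacked a gene, and replicates differed by more than sampling noise (chi-square per degree of freedom 2.63 to 31). Alternatives were RLE scaling, DESeq2 1.42.0, no filter, only the 6 libraries compared, the replicate number as a block, limma 3.58.1 on log2(TPM + 1) and log2(TPM + 0.1), and leaving out each library. Bounds for groups at 0 after a library was left out, macrophage sums without Lyz2, the filter on the cultured libraries alone, and counts without Control 1, EPZ5676 1 or E11.5 3 over lists and non-overlapping members were added after seeing the data.

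The members and lists were chosen with earlier results of these data known. The rule for named genes took all 9 members; per platelet-related list, up to 4 called genes with the largest change in Control against E11.5 (otherwise the 2 with the smallest p) and the 1 with the smallest p in EPZ5676 against Control; the 8 nearest genes with a TPM of at least 1 in some group; and genes overlapping a member. With 3 libraries a group, no exact test of a single value can go below p = 0.1, so none was used. Figures used matplotlib 3.10.9.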

Additional observations from a re-analysis of the deposited data

How the results depend on the processing

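Counts were the limit for 6 of the 9 members, which no main test covers. Relative to fresh lung, Ppbp, Pf4 and Itga2b stayed lower under RLE scaling, DESeq2, no filter, the 6-library fits, the replicate block, both limma fits and each left-out library. The calls lost were those of EPZ5676 against E11.5 in limma: Itga2b at -0.58 with a pseudocount of 1 TPM, and Itga2b at -0.68 and Pf4 at -2.35 with 0.1 TPM, which left 1 member called. Without the filter, 5 members were called in Control against E11.5 and 6 in EPZ5676 against E11.5. Over left-out libraries, the log2 fold changes in Control against E11.5 ran from -8.58 to -6.51 for Ppbp, -4.51 to -3.12 for Pf4 and -2.53 to -2.03 for Itga2b. In EPZ5676 against E11.5 they ran from -8.62 to -4.38, -2.48 to -1.78 and -2.09 to -1.59. In EPZ5676 against Control they ran from -1.77 to 3.71 for Ppbp, 1.06 to 2.46 for Pf4 and 0.14 to 0.70 for Itga2b, and no member was called. The fitted Ppbp values of -8.62, -8.58, -1.77 and 3.71 come from groups left with no count, so they are no sizes, and the sign of -1.77 (0 counts against 1) shows no turn. In the 6-library fit of EPZ5676 against Control, Ppbp and Pf4 did not pass the filter and gave no value.

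Over all genes, EPZ5676 against Control gave 0 calls in the main test, 76 without the filter, 1 with the replicate block, 104 in DESeq2 and 0 to 26 over left-out libraries (26 without EPZ5676 2). The cause was not tested. Calls ran from 3919 to 5748 in Control against E11.5 and 4370 to 6954 in EPZ5676 against E11.5. Of same-numbered libraries in EPZ5676 against Control, the first pair deviated together (correlation 0.46) and the others did not beyond 0.1 (0.08 and -0.05), so the numbers were not taken to pair samples. With the replicate block the log2 fold changes in Control against E11.5 were -6.95, -3.70 and -2.29 for Ppbp, Pf4 and Itga2b, and no member's call changed, while Cxcl15 gained one in each explant group against fresh lung. RLE scaling moved the median of all genes by at most 0.02.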
